A study of Cyanidioschyzon merolae with 29 samples.

Results

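*CMI067C* and *CMI068C* are neighbouring loci on chromosome 9 of *Cyanidioschyzon merolae*, a unicellular red microalga of hot acidic springs. They were chosen by their higher counts in cultures with Ni than in the untreated control, and are 2 of the 4984 genes in the table of counts and 2 of the 4796 with enough counts to be tested. The comparison of Ni with the untreated control therefore describes the pair and was not tested for them. The name of a Ni-induced pair comes from this choice, and the same values cannot support it. At both doses on days 5 and 10 the treated libraries of both loci lay above the untreated libraries of the same day. At 3 mM Ni this was so on day 15 as well. In these comparisons 11.2% to 22.7% of all single genes lay apart in this direction. For 1 mM Ni on day 15 the libraries of both loci overlapped with the untreated ones.

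The cultures were of strain NIES-3377, grown in acidic medium under continuous light, and carried no other treatment than Ni, which was added as nickel sulfate at the start. The untreated control (0 mM Ni) was sampled on days 0, 5, 10 and 15, and the cultures with 1 or 3 mM Ni on days 5, 10 and 15. These are 10 conditions with 3 libraries of poly(A)-selected RNA each, except for 2 at 1 mM Ni on day 15, or 12 untreated, 8 at 1 mM and 9 at 3 mM Ni. Libraries are named by their culture labels, C1 to C5 untreated, 1A to 1E at 1 mM and 3A to 3E at 3 mM Ni. The 29 libraries held 2602444 to 4067107 counts (median 3121668). Since the RNA came from whole cultures, fewer cells with a transcript and less of it per cell cannot be told apart.

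Ni is a transition metal that cells need in traces at most and that is toxic in excess, when it displaces other metals from proteins and promotes oxidative stress. Algae meet an excess of metal by changing the uptake, export, vacuolar storage and binding of metal ions, and by repairing or replacing damaged proteins. Genes that lie side by side can share the DNA that controls them, and a transcript of one can run into the next, so that neighbours are often looked at together in compact genomes such as that of *C. merolae*.

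In the ASM9120v1 assembly, *CMI067C* lies on chromosome 9 from 194203 to 194373 and *CMI068C* from 194807 to 198832, with 433 bases between them. Neighbouring nuclear genes were a median of 1530.5 bases apart over 4710 pairs, and 15.5% of the pairs were as close as these or closer. The gene models hold no untranslated regions, since 100% of their lengths are multiples of 3, and lengths are given as coding lengths. *CMI067C* is a very short model of 171 bases, or 57 codons with the stop, and only 6 of 4730 nuclear genes (0.127%) are no longer than that. *CMI068C* measures 4026 bases, or 1342 codons, against a median of 1278 bases, and 3.4% of the nuclear genes reach its length. Neither locus has a description in the annotation, as is the case for 42.8% of all genes, and no other gene overlaps them. On the low side the next locus is *CMI066C* (chromosome 9 from 192250 to 192969, with no description), 1233 bases before *CMI067C*. The locus *CMI069C* was not analysed here, and *CMI070C*, described as similar to a syntaxin binding protein, a kind of protein that acts in vesicle fusion, was taken as the next one (chromosome 9 from 203830 to 210837, 4997 bases after *CMI068C*). The strand of these loci is not given in the sources used here.

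The locus *CMI067C* was among the least abundant of the tested genes, with rank 83 of 4796 from the lowest by mean CPM (counts scaled to normalized library size). In untreated cultures it had 4, 3 and 2 counts on day 0 (C1, C2, C4), 4, 1 and 2 on day 5 (C3, C4, C5), 10, 7 and 3 on day 10 (C1, C3, C5) and 4, 4 and 5 on day 15 (C1, C3, C4). At 1 mM Ni it had 15, 14 and 10 counts on day 5 (1A, 1B, 1C), 12, 10 and 13 on day 10 (1A, 1B, 1D) and 5 and 11 on day 15 (1C, 1E). At 3 mM Ni it had 21, 16 and 22 counts on day 5 (3C, 3D, 3E), 13, 17 and 15 on day 10 (3A, 3B, 3C) and 12, 22 and 14 on day 15 (3C, 3D, 3E). Every library at 3 mM Ni thus had more counts than any untreated one. Within days 5, 10 and 15, 14.6%, 22.7% and 14.0% of all genes lay higher in CPM at 3 mM Ni without overlap. The share over pooled days was not counted. The lowest library at 1 mM Ni, 1C of day 15, lay within the untreated range. As levels these are 0.373 to 2.50 CPM (median 1.28) untreated, 1.45 to 4.36 CPM (median 3.38) at 1 mM and 3.19 to 6.60 CPM (median 4.72) at 3 mM Ni. The expression filter stood at 3.203 CPM, which *CMI067C* passed in 0 of 12 untreated libraries, 6 of 8 at 1 mM and 9 of 9 at 3 mM Ni. It was thus tested only through the libraries with Ni in which it is high.

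The locus *CMI068C* was of middling abundance, at percentile 59.2 of the tested genes by mean CPM, with 116 to 943 counts per library. In untreated cultures its level was 71.4, 64.0 and 47.2 CPM on day 0 (C1, C2, C4), 73.9, 64.9 and 56.6 CPM on day 5 (C3, C4, C5), 77.9, 69.5 and 95.4 CPM on day 10 (C1, C3, C5) and 89.5, 46.5 and 60.0 CPM on day 15 (C1, C3, C4). At 1 mM Ni it was 176.8, 179.9 and 112.4 CPM on day 5 (1A, 1B, 1C), 146.3, 149.2 and 169.9 CPM on day 10 (1A, 1B, 1D) and 82.1 and 117.5 CPM on day 15 (1C, 1E). At 3 mM Ni it was 258.0, 278.2 and 270.3 CPM on day 5 (3C, 3D, 3E), 242.7, 209.3 and 230.6 CPM on day 10 (3A, 3B, 3C) and 208.8, 242.4 and 224.4 CPM on day 15 (3C, 3D, 3E). All 9 libraries at 3 mM Ni lay above all 8 at 1 mM Ni. The share of genes for which this holds over pooled days was not counted. Within days 5, 10 and 15 it was 14.9%, 17.7% and 12.7%. Of the libraries at 1 mM Ni only 1C of day 15 lay within the untreated range, as for *CMI067C*. Per kilobase of coding length, the median level of *CMI067C* was 7.50, 19.7 and 27.6 CPM per kb at 0, 1 and 3 mM Ni, and that of *CMI068C* 16.7, 36.7 and 60.2 CPM per kb. By this measure the longer locus was the higher at each dose. For a model as short as *CMI067C*, the length over which reads could be counted is not known, so the order of abundance is uncertain.

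**Figure D1:**
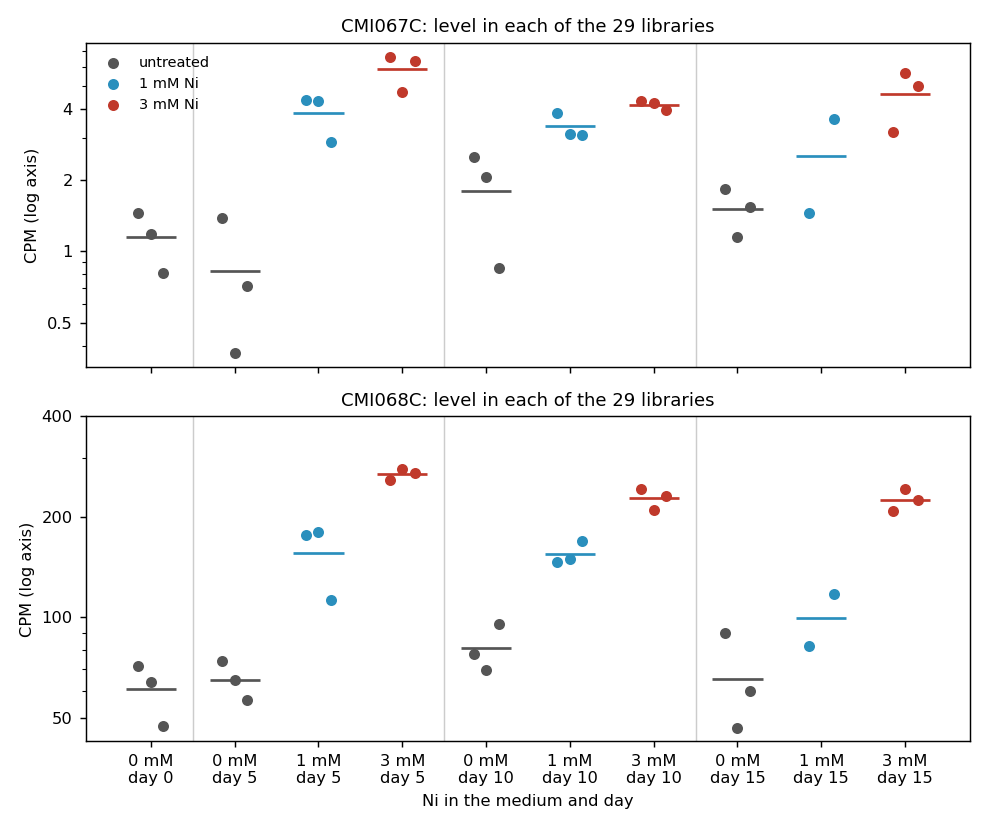
Level of *CMI067C* (top) and *CMI068C* (bottom) in CPM on log axes, by Ni in the medium and day. Each point is a library and each line the mean of a condition. The libraries at 3 mM Ni (red) lie above the untreated libraries (grey) of the same day for both loci, and at 1 mM Ni (blue) on day 15 a library of each locus falls into the untreated range.

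As the values that chose the pair, the differences from the untreated control of the same day are given without a test. They are log2 fold changes from a fit of all 29 libraries with edgeR's quasi-likelihood model, each with its standard error (SE), and both doses share the untreated libraries of a day. Mean *CMI068C* levels of 268.8 ± 10.2, 227.5 ± 16.9 and 225.2 ± 16.8 CPM (SD, n = 3) at 3 mM Ni stood against 65.1 ± 8.65, 80.9 ± 13.2 and 65.3 ± 22.0 CPM (SD, n = 3) in the control on days 5, 10 and 15. The log2 fold changes were 2.04 (SE 0.21), 1.49 (SE 0.20) and 1.80 (SE 0.21). With 1 mM Ni the means were 156.4 ± 38.1, 155.1 ± 12.9 and 99.8 ± 25.0 CPM (SD, n = 3, 3 and 2), with log2 fold changes of 1.26 (SE 0.21), 0.94 (SE 0.20) and 0.62 (SE 0.23).

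For *CMI067C* the mean level on days 5, 10 and 15 was 5.90 ± 1.03, 4.17 ± 0.193 and 4.62 ± 1.29 CPM with 3 mM Ni against 0.823 ± 0.512, 1.80 ± 0.852 and 1.51 ± 0.341 CPM in the control (SD, n = 3). The log2 fold changes were 2.77 (SE 0.46), 1.18 (SE 0.40) and 1.62 (SE 0.43). With 1 mM Ni the level was 3.85 ± 0.822, 3.37 ± 0.421 and 2.53 ± 1.53 CPM (SD, n = 3, 3 and 2) and the log2 fold changes 2.16 (SE 0.48), 0.87 (SE 0.41) and 0.74 (SE 0.50). The SE of *CMI067C* was larger than that of *CMI068C* in each of the 6 comparisons. On day 5, 59 counts at 3 mM Ni stood against 7 in the control, a ratio of count rates of 7.05 with an exact 95% interval from 3.21 to 18.3, and for *CMI068C* 2694 counts stood against 546, a ratio of 4.13 (3.76 to 4.53). On day 10 these ratios were 2.27 (1.31 to 4.06) for *CMI067C* and 2.79 (2.59 to 3.02) for *CMI068C*, and on day 15 they were 3.15 (1.68 to 6.33) and 3.64 (3.31 to 4.00). The intervals of both loci overlap on each day, and they cover counting error only. As these counts chose the pair, the intervals are no test of a difference from the control.

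Background values for all 4796 genes place these differences. The treated libraries lay above the untreated ones without overlap for 12.7%, 11.2% and 7.51% of genes at 1 mM and for 14.6%, 22.7% and 14.0% at 3 mM Ni on days 5, 10 and 15. With an adjusted p under 0.05, 0.48%, 0.146% and 0.0% of genes were called in either direction at 1 mM and 10.2%, 29.2% and 10.3% at 3 mM Ni. For 1 mM Ni on day 15, where edgeR called 0 genes, 436 had an unadjusted p under 0.05 and DESeq2 called 1. These counts moved with single libraries, from 23 to between 6 and 1425 genes at 1 mM Ni on day 5 (highest without the untreated C3) and from 7 to between 2 and 51 on day 10. The 489, 1402 and 494 genes at 3 mM Ni became 179 to 1157, 642 to 1752 and 57 to 843. Ordered by log2 fold change from the highest, *CMI067C* had ranks 16, 96 and 161 of 4796 at 1 mM and 14, 178 and 79 at 3 mM Ni. *CMI068C* had ranks 65, 81 and 218 at 1 mM and 31, 95 and 60 at 3 mM Ni. Over all genes the median log2 fold change was between -0.04 and 0.00 in the 6 comparisons.

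The loci on either side of the pair were taken by position. Their log2 fold changes with Ni lay below those of both members in each comparison, which follows in part from how the pair was chosen. At 1 mM Ni on day 15 the difference of *CMI066C* (-0.69) was larger in size than that of *CMI068C* (0.62). *CMI066C* had 277.8 to 408.5 CPM (median 347.2) at 3 mM Ni and 237.1 to 1019 CPM (median 333.9) untreated, and on each day these libraries overlapped. Its log2 fold changes at 3 mM Ni were 0.07 (SE 0.29), 0.25 (SE 0.29) and -0.60 (SE 0.29) on days 5, 10 and 15, with adjusted p of 0.889, 0.544 and 0.188 by edgeR's quasi-likelihood test. With 1 mM Ni they were -0.09, 0.46 and -0.69, with adjusted p from 0.546 to 0.869. On day 10 its libraries at 1 mM Ni, from 341.4 to 435.9 CPM, lay above the control, from 245.0 to 305.2 CPM, without overlap, as did those of 11.2% of genes. The value on day 15 rests on the untreated library C1, which had 2220 counts of this locus, or 1019 CPM, against 317.2 and 330.9 CPM in C3 and C4. Without C1 of day 15 it was 0.18 at 3 mM and 0.09 at 1 mM Ni, and without C3 or C4 it was -0.88 or -0.87 at 3 mM Ni and passed the test (adjusted p = 0.0372 and 0.0479, edgeR).

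*CMI070C* had 128.3 to 210.9 CPM (median 174.2) at 3 mM Ni and 163.7 to 283.5 CPM (median 214.1) untreated. It was downregulated at 3 mM Ni on day 10, with a log2 fold change of -0.45 (SE 0.16, adjusted p = 0.0331 by edgeR), and its libraries lay below the control without overlap, as did those of 24.5% of genes. Leaving out 8 of the 29 libraries in turn, C1 and C5 and each library at 3 mM Ni of that day among them, lost this call (adjusted p from 0.0529 to 0.19), and without C1 it was -0.32. On days 5 and 15 it was -0.35 and -0.31 (adjusted p = 0.16 and 0.21), and at 1 mM Ni between -0.13 and 0.15 (adjusted p from 0.573 to 0.854). At 1 mM Ni on day 5 it was called without the untreated C3 (0.40, adjusted p = 0.0454, edgeR). The only call of *CMI070C* with all libraries was thus opposite in direction to *CMI068C*.

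**Figure D2:**
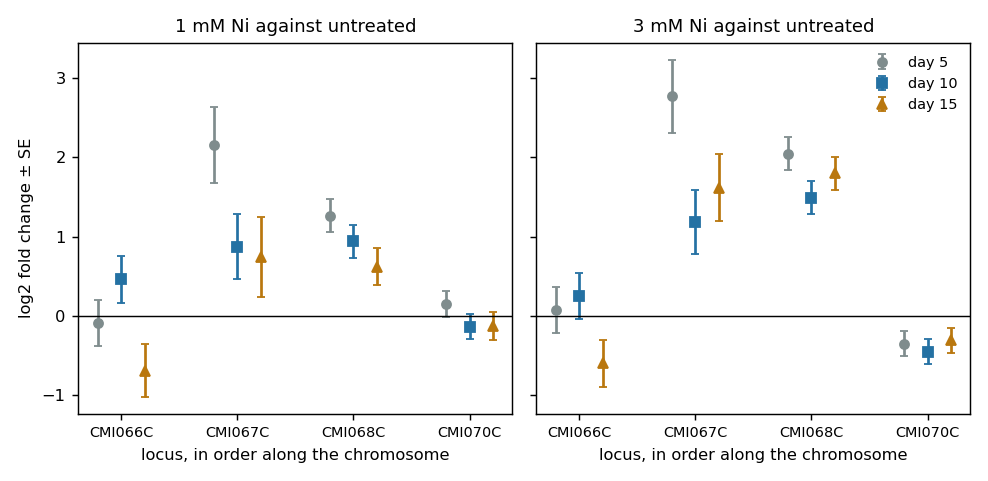
Log2 fold change against the untreated control of the same day, with SE, of *CMI066C*, *CMI067C*, *CMI068C* and *CMI070C* at 1 mM (left) and 3 mM Ni (right). Points are the estimates of days 5, 10 and 15 from the fit of 29 libraries. Both members of the pair lie above 0 in all 6 comparisons, *CMI066C* spreads around 0 and *CMI070C* lies at -0.31 to -0.45 at 3 mM Ni.

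Beyond *CMI066C* and *CMI070C*, 7 other loci between *CMI060C* and *CMI075C* were tested, and *CMI060C* had too few counts. With 1 mM Ni 0 of the 7 passed the test on each day, by edgeR and by DESeq2, and 0 had an unadjusted p under 0.05. At 3 mM Ni 1 fell on day 5, when 4.77% of all genes fell. On day 10 1 rose and 2 fell, when 15.0% of all genes rose and 14.2% fell. On day 15 0 passed (1 at an unadjusted p under 0.05, 0 by DESeq2), when 5.71% of all genes rose and 4.59% fell. *CMI063C* was downregulated on days 5 and 10, by -0.64 (adjusted p = 0.0256) and -0.68 (adjusted p = 0.00782, edgeR), and *CMI064C* on day 10 by -0.50 (adjusted p = 0.0104, edgeR). The upregulated locus was *CMI072C*, the mitochondrial alternative oxidase, a terminal oxidase that bypasses part of the respiratory chain, at 0.84 on day 10 (adjusted p = 0.0184, edgeR). Each of these calls was lost without some single libraries. For *CMI063C* these were C4, C5 and each library at 3 mM Ni on day 5 and C1 on day 10, for *CMI064C* they were C1 and 3B, and for *CMI072C* C5, 3A and 3B of day 10, with adjusted p from 0.0527 to 0.154. With day 0 in place of the same day as the control, *CMI063C* was higher at 3 mM Ni, by 0.41 on day 5 and 0.51 on day 10, and *CMI064C* by 0.11 on day 10. The median log2 fold change of the 7 loci lay between -0.26 and 0.02 in the 6 comparisons, and the highest was 0.84, below the value of either member of the pair on that day.

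**Figure D3:**
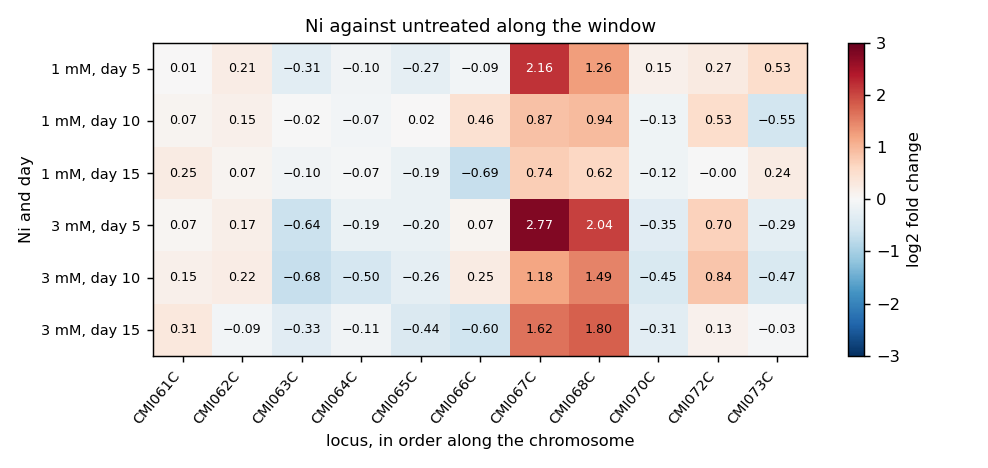
Log2 fold change against the untreated control along the window, for 11 tested loci from *CMI061C* to *CMI073C* (columns, in order along the chromosome) in 6 comparisons (rows). Colour and printed value give the log2 fold change. The columns of *CMI067C* and *CMI068C* are red in each row, from 0.62 to 2.77, and the other columns range from -0.69 to 0.84.

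Pairs of neighbouring genes in which both were much higher under Ni were few. Among 4422 pairs of tested neighbours in the nuclear genome, both were at least 2-fold higher in 5, 2 and 2 pairs at 1 mM and in 8 (0.181%), 26 (0.588%) and 17 (0.384%) pairs at 3 mM Ni on days 5, 10 and 15. Ordered by the smaller log2 fold change of each pair, 2, 14 and 7 pairs were at least as high as *CMI067C* and *CMI068C* at 3 mM Ni, and 3, 4 and 14 pairs at 1 mM Ni, this pair included. The log2 fold changes of neighbours were nearly unrelated over all pairs, with r across pairs from 0.023 to 0.093. These values are a description, as the pair was chosen for its place in this order.

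The share of both loci's counts that fell on *CMI067C* lay between 1.96% and 2.28% over the doses. It was 1.96% untreated (49 counts of *CMI067C* beside 2456 of *CMI068C*), with an exact 95% binomial interval from 1.45% to 2.58%. With 1 mM Ni it was 2.28% (90 and 3863 counts, 1.84% to 2.79%) and at 3 mM Ni 1.99% (152 and 7491 counts, 1.69% to 2.33%). The 3 intervals overlap, and they cover counting error in the summed counts but not the spread between libraries. As a mean over libraries, the log2 ratio of *CMI068C* to *CMI067C* counts (0.5 added to each) was 5.60 ± 0.61 (SD, n = 12) untreated, 5.36 ± 0.26 (SD, n = 8) at 1 mM and 5.60 ± 0.25 (SD, n = 9) at 3 mM Ni. It ranged from 4.90 to 6.86 in untreated libraries, where *CMI067C* had 1 to 10 counts, and from 5.26 to 5.97 at 3 mM Ni, where it had 12 to 22.

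By day, the log2 ratio at 3 mM Ni differed from the control by -0.65, 0.23 and 0.35 on days 5, 10 and 15, and at 1 mM Ni by -0.86, -0.02 and 0.07. These differences come from the libraries by which the pair was chosen and are given without a test. Between 3 and 1 mM Ni the mean difference over the days was 0.24 (0.21, 0.25 and 0.27 on days 5, 10 and 15). It is also given without a test, as *CMI067C* passed the filter only through libraries with Ni. No change of the ratio with dose can be read from these values.

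**Figure D4:**
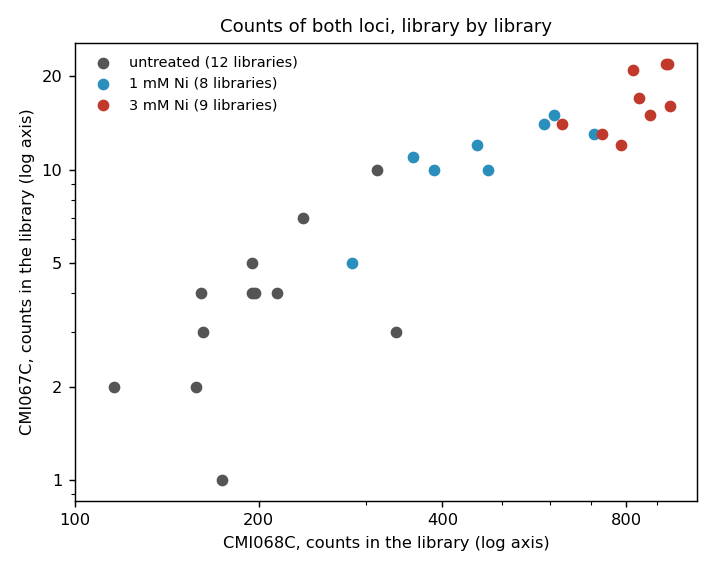
Counts of *CMI068C* (x, log axis) and *CMI067C* (y, log axis) in each of the 29 libraries, coloured by dose. The untreated libraries lie at the lower left with 1 to 10 counts of *CMI067C* and those at 3 mM Ni at the upper right with 12 to 22. Those at 1 mM Ni, with 5 to 15, overlap with both in the counts of each locus.

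Within a dose, libraries with more *CMI068C* tended to have more *CMI067C* under Ni. Relations with *CMI067C* are given without a test, as the locus passed the filter only through libraries with Ni. No link between the loci can be concluded from them. Levels were compared as log2 CPM with a prior count of 2. At 1 mM Ni Pearson's r was 0.85 and Spearman's rho 0.76 (n = 8). At 3 mM Ni r was 0.69 and rho 0.65 (n = 9). In the 12 untreated libraries r was 0.34 and rho 0.45. All 12 lay below the filter for *CMI067C*, with 1 to 10 counts, so that this value cannot be set against those under Ni. Without the 2 libraries farthest from the median of *CMI067C*, r fell to 0.45 at 1 mM and 0.52 at 3 mM Ni, so that the relation rests in part on those libraries, and it was 0.35 untreated. With the mean of each day taken away, r was 0.80 at 1 mM, 0.38 at 3 mM Ni and 0.24 untreated. Over all 4422 neighbouring pairs the median r was 0.059, 0.055 and 0.048 at 1 and 3 mM Ni and untreated, and 2.19%, 12.3% and 30.4% of pairs had an r as high as this pair or higher.

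Across its other neighbour, *CMI066C* and *CMI067C* had r of 0.0061 untreated, -0.34 at 1 mM and 0.48 at 3 mM Ni, also given without a test. The untreated value again rests on *CMI067C* counts below the filter. Levels of *CMI068C* and *CMI070C* had r of 0.36, -0.29 and -0.69 (adjusted p = 0.412, 0.557 and 0.127, permutation tests, adjusted over 9 relations between neighbouring loci). Without the 2 farthest libraries the last value was -0.87 (exact permutation p = 0.00476, adjusted p = 0.0429, n = 7), and with the day means taken away it was -0.19.

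In the untreated cultures, which entered the choice of the pair only as controls, no difference of *CMI068C* between days passed the test. *CMI068C* levels of 65.1, 80.9 and 65.3 CPM on days 5, 10 and 15 stood against 60.9 ± 12.4 CPM (SD, n = 3) on day 0, with log2 fold changes of 0.10 (SE 0.21), 0.41 (SE 0.21) and 0.09 (SE 0.21) and adjusted p of 0.75, 0.125 and 0.774 (edgeR). For *CMI067C*, at 1.15 ± 0.319 CPM (SD, n = 3) on day 0, they were -0.46 (SE 0.58), 0.63 (SE 0.49) and 0.34 (SE 0.52), given without a test, as all 12 untreated libraries lay below the filter. In the same comparisons 39.7%, 40.0% and 36.1% of all genes were called. Between days 5 and 10 the untreated difference was 1.09 (SE 0.51) for *CMI067C* and 0.31 (SE 0.21) for *CMI068C* (adjusted p = 0.573), and edgeR called 0.0% of genes (530 at an unadjusted p under 0.05, 27 by DESeq2). Between days 10 and 15 it was -0.29 (SE 0.46) and -0.32 (SE 0.21), the latter with an adjusted p of 0.306, where 10.5% of genes were called. *CMI066C* was among those, at 1.02 (adjusted p = 0.0333, edgeR), and was at 0.24 (adjusted p = 0.501) without the library C1 of day 15. Without C3 or C5 of day 10 it did not pass either, at 0.94 and 1.01 (adjusted p = 0.136 and 0.109).

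The mean untreated level of *CMI068C* thus ranged 1.33-fold over the 4 days, and that of *CMI067C*, with 7 to 20 counts per day, 2.19-fold. The untreated mean of both loci was highest on day 10. Library C5 of that day had the highest *CMI068C* level of all untreated libraries (95.4 CPM) and, with 3 counts, one of the lower *CMI067C* levels (0.852 CPM).

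The step from 1 to 3 mM Ni used libraries that had also entered the choice of the pair. *CMI068C* was higher at 3 mM without overlap on days 5, 10 and 15, by 0.78 (SE 0.20), 0.55 (SE 0.20) and 1.18 (SE 0.23) on the log2 scale. Libraries lay apart in this direction for 14.9%, 17.7% and 12.7% of all genes. None of the 3 differences passed the adjustment over all genes, with adjusted p of 0.124, 0.0808 and 0.132 in the edgeR fit of all libraries. On day 5 edgeR called 0.0834% of genes, on day 10 8.55%, and on day 15 0.0% (213 at an unadjusted p under 0.05, 3 by DESeq2). Other settings called *CMI068C* on each of the 3 days, among them leaving out the untreated library C1 of day 15, which belongs to neither dose. Since the pair was chosen with these libraries, neither outcome supports or opposes a step between the doses.

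*CMI067C* was higher at 3 than at 1 mM Ni by 0.61 (SE 0.36), 0.31 (SE 0.38) and 0.88 (SE 0.44), given without a test, as the locus passed the filter only through libraries with Ni. Its libraries lay apart on days 5 and 10 and overlapped on day 15, where 3C at 3 mM had 3.19 CPM and 1E at 1 mM 3.61 CPM. On that day the 2 libraries at 1 mM Ni had 5 and 11 counts, and their order was the same for *CMI068C*, at 82.1 CPM in 1C and 117.5 CPM in 1E.

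Between days of the same dose no difference of *CMI068C* passed the test. Those of *CMI067C* are given without a test, as the locus passed the filter only through libraries with Ni. *CMI068C* at 1 mM Ni was lower on day 15 than on day 10 without overlap, by -0.64 (SE 0.23, adjusted p = 0.9995, edgeR), as were 10.9% of all genes. *CMI067C* was lower by -0.42 (SE 0.45) with overlap. From day 5 to day 10 at 1 mM Ni the differences were -0.01 (SE 0.20, adjusted p = 0.995, edgeR) for *CMI068C* and -0.19 (SE 0.38) for *CMI067C*. In these comparisons at 1 mM Ni edgeR called 0.0% of genes, with 187 and 224 at an unadjusted p under 0.05 and 0 and 3 by DESeq2.

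At 3 mM Ni both loci were lower on day 10 than on day 5 without overlap, *CMI067C* by -0.50 (SE 0.36) and *CMI068C* by -0.24 (SE 0.20, adjusted p = 0.555, edgeR). This direction without overlap was seen in 8.26% of genes, and 0.0% passed the test (728 at an unadjusted p under 0.05, 37 by DESeq2). From day 10 to day 15 the differences were 0.15 (SE 0.37) for *CMI067C* and -0.01 (SE 0.20, adjusted p = 0.98, edgeR) for *CMI068C*, where 1.71% of genes were called. The difference from the control of *CMI067C* was smaller on day 10 than on day 5 by -1.28 (SE 0.64) at 1 mM and -1.59 (SE 0.63) at 3 mM Ni, and that of *CMI068C* by -0.32 (SE 0.29) and -0.55 (SE 0.29), given without a test, as these differences chose the pair. The level of *CMI068C* at 3 mM Ni stayed within 1.19-fold between day means, and within 1.33-fold between libraries.

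The genes whose levels were most like those of the pair were found by Pearson's r of log2 CPM over all 29 libraries, among 4795 other tested genes. Since the libraries share doses and days, this likeness holds any response to Ni, and it is given as a description. For *CMI067C* the 5 most alike were *CMI023C* (0.93, chromosome 9 from 71656 to 72696, no description), *CMI068C* (0.90), *CMK153C* (0.89, no description), *CMR001C* (0.88, similar to trefoil factor) and *CML262C* (0.87, a probable metal ion transporter). For *CMI068C* they were *CMR001C* (0.95), *CME001C* (0.92, similar to trefoil factor), *CMI067C* (0.90), *CML262C* (0.90) and *CMK153C* (0.90). The pair had each other at ranks 2 and 3, which follows in part from the choice of both by their counts under Ni. Of the loci taken by position, *CMI066C* stood at ranks 2296 and 2108 (r 0.01 and 0.04) and *CMI070C* at ranks 3373 and 3991 (r -0.22 and -0.39). The study reports several trefoil factor loci. Reads with several alignments were not counted, and whether this affected *CMR001C* or *CME001C* was not tested.

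Beside these, 14 loci of metal transport that the study names and 7 other loci, taken from earlier results of these data for their rise under Ni, were set for comparison. Both lists were chosen on these samples, so that their direction is no independent evidence. Of the 14 metal transport loci, 4 rose and 0 fell at 1 mM Ni on day 5, and 0 passed on days 10 and 15, when 0.417%, 0.125% and 0.0% of all genes rose. At 3 mM Ni 5 rose and 3 fell on day 5, 7 rose and 6 fell on day 10, and 6 rose and 0 fell on day 15, with median log2 fold changes of 0.16, 0.09 and 0.50. Of all genes 5.42%, 15.0% and 5.71% rose and 4.77%, 14.2% and 4.59% fell in these comparisons. *CML262C*, alike in level to the pair, had log2 fold changes of 3.44 (SE 0.44), 2.79 (SE 0.42) and 4.00 (SE 0.47) at 3 mM Ni. They are given without a test, as the study named this locus for its rise in these samples. Of the 7 other loci, 5, 6 and 0 rose on days 5, 10 and 15 with 1 mM Ni (medians 1.97, 2.05 and 0.84) and 6, 7 and 7 with 3 mM Ni (medians 2.59, 2.91 and 2.17). The log2 fold changes of *CMI068C*, from 0.62 to 2.04, lay below these medians in each comparison. Those of *CMI067C* lay above them on day 5 at both doses and below them on days 10 and 15.

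The few counts of *CMI067C* limit what the pair can show. The model is shorter than the reads of a pair placed end to end, and a read pair that touches both loci is left out by the counting. Without transcript ends and strands, counts of a separate *CMI067C* transcript and of a transcript that also covers *CMI068C* cannot be told apart.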

How the data were processed

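The 29 libraries were made from poly(A)-selected RNA of *C. merolae*. After trimming (Trimmomatic 0.39), alignment to ASM9120v1 (Hisat2) and removal of optical duplicates (GATK), the authors deposited raw counts per gene from HTSeq-count on the reverse strand, which leaves out reads with several alignments. For 5 samples, not identified in the sources used here, RNA was purified further. Groups were read from the sample labels. Counts were fitted in R 4.3.3 with edgeR 4.0.16 (quasi-likelihood, TMM, all libraries, 1 coefficient per condition; 188 genes filtered, common dispersion 0.0419), with Benjamini-Hochberg adjustment over 4796 genes and a threshold of 0.05. The steps were tested on simulated data. limma 3.58.1 and DESeq2 1.42.0 served as alternatives. The SE is the log2 fold change divided by the root of F. Named are the pair, its neighbours, window loci that were called, the 5 genes most alike to each and 2 lists, of the study's metal transport loci and of other loci higher under Ni in earlier results. Coordinates come from RefSeq. Members and lists were chosen with earlier results of these data known. Taking *CMI070C* for *CMI069C*, and the comparison of responses between days, were added after seeing the data. P-values measure the spread between these libraries.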

Additional observations from a re-analysis of the deposited data

How the results depend on the processing

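Normalization, filters, model and single libraries left the direction of the pair's difference from the control unchanged, except for *CMI067C* at 1 mM Ni on day 15, which ranged from -0.031 (without 1E) to 1.26 (without 1C). With at least 10 counts in every library *CMI067C* was not tested. With day 0 as the control, log2 fold changes of *CMI067C* were 1.70 and 1.51 at 1 mM on days 5 and 10 and 2.31, 1.81 and 1.96 at 3 mM Ni, and those of *CMI068C* on day 10 were 1.35 and 1.90. Leaving out 1 library at a time gave 1.83 to 2.73 for *CMI067C* at 1 mM and 2.44 to 3.34 at 3 mM Ni on day 5, each highest without the untreated C3. The difference of *CMI068C* between 3 and 1 mM Ni was called in fits of the compared conditions alone (0.80 and 0.54 on days 5 and 10), and on day 15 with DESeq2 (1.17) and limma-voom (1.20), and on each day without the untreated C1 of day 15. It ranged over 0.59 to 0.89, 0.50 to 0.62 and 0.96 to 1.46 without single libraries. The culture labels recur on several days. Of 18 pairs of libraries with the same label, 2 had correlated deviations over 0.1 (median -0.0407, against 0.014 for pairs with different labels). Deviations from the mean of 2 or 3 libraries are tied to each other and cannot exclude a pairing. The label as a fixed replicate block moved the number of genes called, as given below. With the label as a random replicate block the day 15 difference was 1.21 (adjusted p = 0.0331).

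Some differences changed sign, most of them near 0 and not past the test. *CMI068C* was -0.0016 with the block for untreated day 15 against day 0 and 0.012, 0.014 and 0.030 for day 10 against 5 at 1 mM Ni (compared conditions, limma-voom, block). The log2 ratio of *CMI068C* to *CMI067C* was 0.0016 at 1 mM and 0.31 at 3 mM Ni against the control with 2 added to each count. With day 0 as control *CMI070C* was 0.25 and 0.26 at 1 mM on days 10 and 15 and 0.073 at 3 mM Ni on day 15, *CMI066C* 0.013 (1 mM, day 15), -0.065 and 0.10 (3 mM, days 10 and 15), and *CMI063C* 0.41 and 0.51 (days 5 and 10) and *CMI064C* 0.11 at 3 mM Ni, where they had been called lower. The untreated r of *CMI066C* and *CMI067C* was -0.63 without the 2 farthest libraries. Without single libraries, *CMI068C* ranged over -0.057 to 0.24 and -0.20 to 0.29 for untreated days 5 and 15 against day 0, -0.20 to 0.10 for day 10 against 5 at 1 mM, and -0.072 to 0.034 for day 15 against 10 at 3 mM Ni. *CMI067C* ranged over -0.62 to 0.025 (untreated), -1.19 to 0.097 (1 mM) and -0.042 to 0.35 (3 mM) for day 15 against 10, and the ratio at 3 mM Ni against the control over -0.12 to 0.16. *CMI066C* ranged over -0.30 to 0.048 and -0.97 to 0.087 at 1 mM (days 5 and 15) and -0.13 to 0.21 and -0.88 to 0.18 at 3 mM Ni, and *CMI070C* over -0.28 to 0.0098 at 1 mM Ni on day 10.

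The number of genes called moved more. Over the other fits with the control of the same day it was 2 to 207 (23 as reported) and 1 to 76 (7) at 1 mM on days 5 and 10, 121 to 646 (489) and 13 to 697 (494) at 3 mM Ni on days 5 and 15, and 3 to 249 (4) and 397 to 627 (410) for 3 against 1 mM Ni on days 5 and 10. Apart from fits with the culture label as a fixed replicate block, it was 933 to 1960 (1904) and 307 to 1830 (1729) for untreated days 5 and 15 against day 0. It was 0 to 745 (504) for untreated day 15 against 10, 0 to 225 (82) for day 15 against 10 at 3 mM Ni, and 0 to 73 (0) for day 10 against 5 at 1 mM Ni. With that block, in fits of 1 dose, 1090 (0) and 332 (0) genes were called at 1 mM Ni for day 10 against 5 and day 15 against 10. For untreated day 10 against day 0 it was then 1 (1918), and for the same 2 steps at 3 mM Ni it was 0 (0) and 0 (82). Without single libraries it was 6 to 1425, 2 to 51 and 0 to 1 (0 as reported) at 1 mM on days 5, 10 and 15, 179 to 1157, 642 to 1752 (1402) and 57 to 843 at 3 mM Ni, and 0 to 59, 5 to 876 and 0 to 3 (0) for 3 against 1 mM Ni. For untreated day 10 against 5 it was 0 to 664 (0), for day 15 against 10 0 to 921, for day 10 against 5 at 3 mM Ni 0 to 394 (0) and for day 15 against 10 at 3 mM Ni 0 to 601. The cause was not tested.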
